A study of Homo sapiens with 20 samples.

Results

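Transcription factors of the AP-1, EGR and Krüppel-like (KLF) families were followed in MM1.S, an established human multiple myeloma cell line, by SLAM-seq, which separates newly made RNA from older RNA. The set holds 10 of the 19593 genes counted. They are the AP-1 subunits FOS, FOSL2, JUN, JUNB and JUND, the zinc finger factor EGR1, and KLF2, KLF6, KLF10 and KLF13. They were chosen by name, and because EGR1 had been seen to be higher at 24 h. EGR1 also passed the filter on low reads only through dCBP-30 libraries, where it is high. Every value of EGR1, at 2, 6 and 24 h, is therefore a description with no test. Each gene was read on the annotated transcript with the most reads over all libraries. Wild-type MM1.S cells were given 10 nM dCBP-30, a degrader of the acetyltransferases CBP and p300, or the vehicle DMSO, for 2, 6 or 24 h, with 3 libraries in each of the 6 groups and separate DMSO libraries at each time. In these 18 libraries the RNA made during the last 1 h was labelled with 4-thiouridine (4sU), which is read as C in place of T after alkylation, so a read with such a change (a T>C read) marks new RNA. Another 2 libraries of MM1.S cells had no 4sU and give the background, and no treatment is given for them. The libraries of a group are triplicate samples of 1 cell line, and nothing says that they came from separate cultures, so p-values measure the spread between these libraries, which may be technical.

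FOS, JUN and their relatives are leucine zipper proteins that pair with each other to form AP-1, a dimer that binds short TGA-containing DNA elements. FOS, EGR1, JUN and JUNB are known as immediate early genes, which growth factors and stress switch on within minutes through MAP kinases, the serum response factor SRF and its ETS partners, and whose mRNAs are short-lived. KLF proteins bind GC-rich and CACCC elements through zinc fingers. In B cells and plasma cells KLF2 is known for its part in homing and quiescence, KLF6 is an early response gene in many cell types, and KLF10 was found as a gene induced by TGF-beta. CBP and p300 are coactivators that acetylate histones at enhancers and bind many of these factors, JUN among them.

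Each library held between 12439665 and 18727385 reads on genes. Levels are given in RPM (reads per 1000000, with a library's total corrected by its TMM factor) and are not divided by gene length, so levels are compared between groups and not between genes. The share of T>C reads in a library was 6.08% ± 0.0781 (SD, n = 3) for DMSO at 2 h and 5.54% ± 0.136 for dCBP-30, 6.38% ± 0.183 and 4.98% ± 0.287 at 6 h, and 8.31% ± 0.266 and 6.38% ± 0.47 at 24 h, against 0.802% ± 0.0106 (n = 2) without 4sU. At 24 h the T>C reads with dCBP-30 also carried fewer conversions, 1.47 ± 0.04 per T>C read against 2.48 ± 0.0265 under DMSO (SD, n = 3), and the part of this in the 24 h results was not tested. The median gene changed by 0.05, -0.27 and -0.69 on the log2 scale in T>C reads at 2, 6 and 24 h. In bulk RNA, fewer cells and less RNA per cell cannot be told apart. All 9 plasma cell markers examined (SDC1, TNFRSF17, MZB1, XBP1, PRDM1, IRF4, CD38, SLAMF7 and JCHAIN) were present under DMSO, the lowest being CD38 with 105 RPM at 24 h, and all 9 were called lower in T>C reads at each time (7.14%, 17.1% and 31.2% of all genes at 2, 6 and 24 h). In total reads, 2, 8 and 9 of them were lower (1.25%, 8.67% and 16.1% of all genes). Among 12 markers of other cell types, CD3D, LYZ and EPCAM had no read under DMSO at any time, and the highest mean was 12.1 RPM for PECAM1.

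Some sequences of these genes are given for reference, and their part in the results below was not tested. The RefSeq promoters (GRCh38.p14, from 250 bases before to 50 after the start) of 9 of the 10 genes were searched on both strands, KLF10 not being listed. The CArG box, the element that SRF binds, is held by 1.29% of all 35116 promoters and, among these 9, by EGR1. EGR1 has it at 2 places of the plus strand, 105 and 83 bases before the start, shown here in capitals because EGR1 was the gene that chose the set.
EGR1 at chr5:138465366-138465391 (+): cggtcctgCCATATTAGGgcttcctg
EGR1 at chr5:138465388-138465413 (+): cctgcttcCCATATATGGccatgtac
The AP-1 and CREB-like element TGACATCA is held by 2.61% of all promoters and by JUN and KLF6. The related element TGACGTCA is held by 1.85% of all promoters and by JUND. They are shown so that the promoters of these 3 genes can be set beside their levels, given further on. TGACTCA, the classical AP-1 site, is held by 4.95% and by FOSL2. The first base of the element lies 67, 172 and 200 bases before the start of JUN, KLF6 and JUND.
JUN at chr1:58784098-58784123 (-): gccttggggTGACATCAtgggctatt
KLF6 at chr10:3785365-3785390 (-): ggccggagcTGACATCAtcggcgcgc
JUND at chr19:18281806-18281831 (-): ccgcccccaTGACGTCAacccacaag
An EGR1 element, GCGGGGGCG, is held by 5.07% of all promoters and by KLF2 and KLF6, and GGGCGG, a core of SP and KLF sites that can overlap the EGR1 element, by 45.0% and by 7 of the 9. A match is only a run of letters, and no factor binding was measured here.

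ATTTA, the AU-rich pentamer known from unstable mRNAs, occurs in the counted 3′ UTR of all 10 genes, as it does in 75.3% of the 9850 genes with at least 1000 reads. FOS has 6.2 per kb, more than 97.1% of those genes, and JUNB has 4.0 per kb, more than 88.4%. The other 8 lie between 0.818 per kb (EGR1, more than 35.2% of genes) and 2.42 per kb (KLF2, more than 67.6%), around the median of 1.52 per kb. The AU-rich stretches below (hg38) belong to the genes with a high share of new RNA that are described next, with FOS as the reference case and without KLF10, for which no sequence is printed, and ATTTA is in capitals.
FOS at chr14:75282058-75282087 (+): tgtgtttttaATTTATTTAttaagatggat
KLF2 at chr19:16327101-16327130 (+): actgtgactggtATTTAttggacccagaga
KLF6 at chr10:3778791-3778820 (-): gtATTTAcaaatataacacaacaATTTAac
JUN at chr1:58781335-58781364 (-): tccagaaaggatATTTAagaaaatacaata
JUNB at chr19:12793060-12793089 (+): atatatttgtgtATTTAacagggaggggaa

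Under DMSO, 5 of these mRNAs were largely new among those with at least 100 reads in a group. FOS, EGR1 and KLF13 had fewer reads in each DMSO group and are left out of the order given here. After the 1 h of labelling, 81.2% of the KLF2 reads under DMSO at 2 h were T>C reads, which was above 99.9% of the 9900 genes with at least 100 reads in that group. The share was 71.7% for KLF6, 63.7% for KLF10, 58.6% for JUN and 55.1% for JUNB, all at or above the 99th percentile, while the median gene had 8.63%. FOSL2 (19.7%) and JUND (17%) had older RNA, above 83.1% and 78.4% of genes. The order was the same under DMSO at 6 h, with KLF2 at 82%, KLF6 at 73.6% and KLF10 at 70%, then JUN at 59.1% and JUNB at 54.9%, then FOSL2 at 21.1% and JUND at 17%. At 24 h KLF2 (86%) and KLF6 (76.5%) were again the highest of those with at least 100 reads, but JUNB (74.2%) and JUN (74.1%) lay above KLF10 (73.1%). A share also depends on the number of T positions a read covers, which lie between 24.5% and 35.2% of the counted bases of these genes.

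EGR1, a zinc finger activator of the early growth response, was at or near 0 reads under DMSO and had more under dCBP-30. At 6 h the dCBP-30 libraries held 15, 13 and 21 T>C reads of EGR1 and none of the 3 DMSO libraries held any. The lowest dCBP-30 library was therefore above all DMSO libraries, at 0.722 RPM in T>C reads, as for 8.57% of all genes. EGR1 was at least 14-fold higher (0.969 ± 0.289 RPM, SD, n = 3, against the 0.0685 RPM that a count of 3 over the DMSO group allows). Total reads were 28, 33 and 42 under dCBP-30 and 8, 11 and 0 under DMSO, a ratio of 4.65 in reads scaled to library size.

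At 2 h the EGR1 T>C reads numbered 0, 4 and 13 under dCBP-30 and 0, 0 and 4 under DMSO. The groups overlapped, and the log2 fold change was 1.83. Total reads were 9, 33 and 13 against 7, 1 and 4, a ratio of 4.35 in reads scaled to library size and a log2 fold change of 2.05. The 33 reads were in 1 library.

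At 24 h, the time that chose the gene, the dCBP-30 libraries held 65, 62 and 37 T>C reads and the DMSO libraries none, and total reads were 140, 145 and 93 against 0, 0 and 2. The 24 h dCBP-30 libraries lay between 1.99 and 3.56 RPM in T>C reads and the 6 h dCBP-30 libraries between 0.722 and 1.29 RPM, without overlap, while those at 2 h, between 0 and 0.814 RPM, overlapped with those at 6 h. In total reads the 3 dCBP-30 groups had means of 1.26 ± 0.799, 2.03 ± 0.48 and 6.87 ± 1.64 RPM at 2, 6 and 24 h, against 0.303 ± 0.234, 0.435 ± 0.386 and 0.0483 ± 0.0837 under DMSO (SD, n = 3). Of the EGR1 reads under dCBP-30, 47.7% ± 7.37 at 6 h and 43.0% ± 3.33 at 24 h carried T>C changes (SD, n = 3). In the libraries that had no 4sU there were 6 reads of EGR1 and no T>C read.

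**Figure D1:**
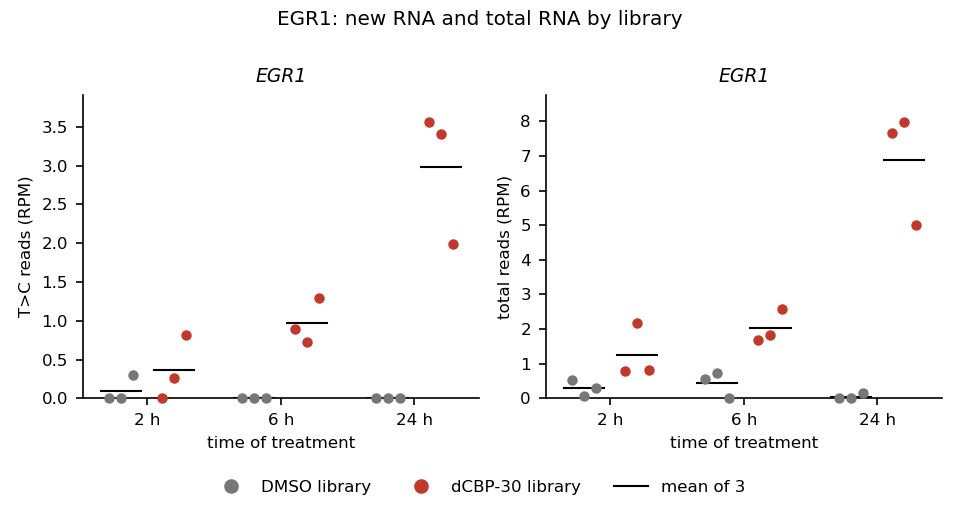
T>C reads (left, RPM) and total reads (right, RPM) of EGR1 in each library at 2, 6 and 24 h, with DMSO in grey, dCBP-30 in red and a line at the mean of 3. DMSO libraries stay below 1 RPM in total reads, and dCBP-30 libraries reach 1.99 to 3.56 RPM in T>C reads at 24 h.

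The KLF genes went the other way. KLF2, KLF6 and KLF10 all fell in T>C reads at 2, 6 and 24 h, where a gene was called lower with an edgeR adjusted p under 0.05 and more than a 2-fold decrease. They were 3 of the 4 members called lower at 2 h, out of 7 tested besides EGR1, JUN being the other, while 7.14% of all 10083 genes tested were lower and 1.66% higher. At 6 h they were the only 3 members lower of the same 7 (17.1% of all genes lower), and none of the 7 was higher (2.36% of all genes). At 24 h they were again the only 3 lower of the 7 (31.2% of all genes), and JUN was the only member higher (2.18%). FOS and KLF13 had too few T>C reads to be tested.

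KLF6, whose counted 3′ UTR lies at chr10:3775996-3779541 of hg38, had 18.8, 22.8 and 25.2 RPM of T>C reads with dCBP-30 at 2 h and 136, 125 and 131 RPM under DMSO. At 6 h the values were 24.0, 32.5 and 34.9 against 127, 138 and 131 RPM, and at 24 h 50.2, 37.7 and 54.4 against 104, 112 and 116 RPM. At each time the highest dCBP-30 value was under the lowest DMSO value, as for 14.6%, 28.2% and 45.8% of all genes at 2, 6 and 24 h, and the gap was narrowest at 24 h. The log2 fold changes were -2.55 (SE 0.16, edgeR adjusted p = 5.2e-20), -2.12 (SE 0.16, adjusted p = 2.9e-17) and -1.22 (SE 0.15, adjusted p = 1.4e-09). Between 2 and 24 h the effect shrank by 1.33 on the log2 scale (SE 0.22, edgeR adjusted p = 2.3e-06), and 3.02% of all genes had a difference in this direction.

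Total KLF6 RNA followed closely at first and then returned most of the way. It was 33.1 ± 2.56 RPM against 182 ± 10.4 under DMSO at 2 h (SD, n = 3), 41.6 ± 4.48 against 180 ± 2.76 at 6 h, and 102 ± 15.5 against 145 ± 10.9 at 24 h. The log2 fold changes in total reads were -2.46 (edgeR adjusted p = 4.6e-13), -2.11 (adjusted p = 3.2e-13) and -0.50 (adjusted p = 0.00072), the last under 2-fold and gone without TMM factors (0.02, adjusted p = 0.86). With T>C reads as the library size, the value for KLF6 T>C reads, 24 h, was -0.58 (adjusted p = 0.0012), under 2-fold as well.

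KLF2 (chr19:16327029-16328685) had 10.2, 17.3 and 11.8 RPM of T>C reads with dCBP-30 at 2 h against 46.2, 42.2 and 59.9 under DMSO. It had 19.3, 22.6 and 27.1 against 67.5, 61.6 and 61.0 RPM at 6 h, and 13.9, 9.17 and 7.19 against 29.7, 33.9 and 30.1 RPM at 24 h. KLF2 with dCBP-30 lay below DMSO without overlap at 2, 6 and 24 h, as for 14.6%, 28.2% and 45.8% of all genes. The DMSO level itself was lowest at 24 h. The log2 fold changes were -1.91 (SE 0.20, edgeR adjusted p = 1.7e-11), -1.46 (SE 0.19, adjusted p = 1.1e-08) and -1.63 (SE 0.20, adjusted p = 7.7e-10). The difference between the effects at 24 and 2 h was not called (0.28, 95% interval -0.28 to 0.84, edgeR adjusted p = 0.50), but it was when scaled by T>C reads (0.93, adjusted p = 0.012). Under DMSO, KLF2 was lower at 24 h than at 2 h by 0.66 on the log2 scale (SE 0.19, edgeR adjusted p = 0.031), short of 2-fold. Total KLF2 reads fell by 1.72, 1.30 and 0.85 (edgeR adjusted p = 7.1e-07, 3.7e-06 and 0.00041), from 60.8 ± 9.47 to 18.4 ± 5.18 RPM at 2 h (SD, n = 3), and the decrease at 24 h was under 2-fold. Without TMM factors the decrease was under 2-fold at 6 h as well (-0.98, adjusted p = 0.00016) and missed the threshold at 24 h (-0.32, adjusted p = 0.14). Scaled by T>C reads, the decrease in T>C reads at 24 h was -0.97 (adjusted p = 7.5e-05), just under 2-fold.

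KLF10, a transcriptional repressor induced by TGF-beta and read on chromosome 8, was the least abundant of the 3 in reads, with 23, 46 and 67 T>C reads with dCBP-30 at 2, 6 and 24 h against 246, 271 and 285 under DMSO. By library it had 0.431, 0.066 and 1.06 RPM in T>C reads at 2 h against 3, 8.74 and 6.20 under DMSO. At 6 h it had 0.898, 1.05 and 0.736 against 5.17, 5.63 and 7.73 RPM, and at 24 h 1.31, 0.824 and 1.5 against 4.73, 5.19 and 9.06 RPM. All dCBP-30 libraries lay below all DMSO libraries at each time, as for 14.6%, 28.2% and 45.8% of all genes. The log2 fold changes were -3.48 (SE 0.51, edgeR adjusted p = 2.9e-07), -2.77 (SE 0.47, adjusted p = 3.7e-06) and -2.37 (SE 0.46, adjusted p = 2.1e-05), and the total reads changed by -2.82, -3.01 and -2.16 (adjusted p = 0.001, 5.2e-05 and 0.00051). KLF10 kept its more than 2-fold decrease in T>C reads at 24 h when scaled by T>C reads (-1.73, adjusted p = 0.0027).

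KLF13, which acts as a repressor and activator at GC-rich promoters, was barely present, with 89 reads over the 20 libraries. The 3 dCBP-30 libraries at 6 h held no read of it and the DMSO libraries held 15 in all, so it was at least 5.83-fold lower in total reads (edgeR adjusted p = 0.025). That call was lost without any 1 of the 3 dCBP-30 libraries at 6 h or without replicate 3 of DMSO (adjusted p from 0.06 to 0.069). At 2 h the log2 fold change in total reads was -0.43 (SE 1.13, edgeR adjusted p = 0.90) and at 24 h -2.72 (SE 1.30, adjusted p = 0.077).

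**Figure D2:**
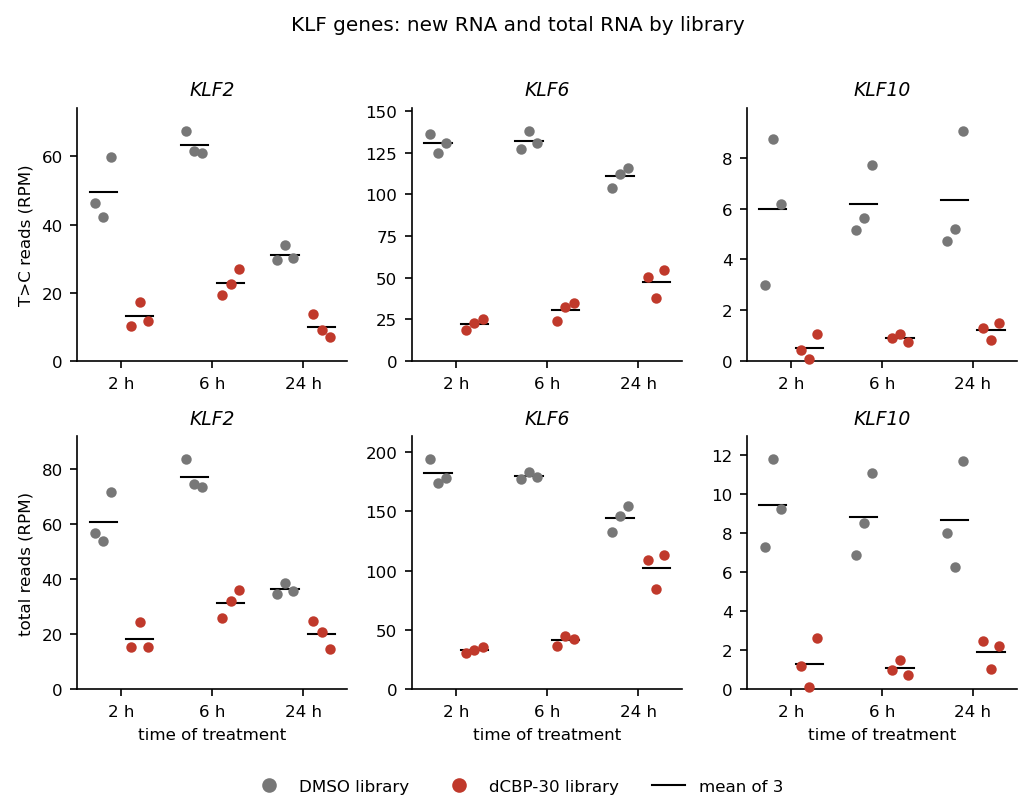
T>C reads (top, RPM) and total reads (bottom, RPM) of KLF2, KLF6 and KLF10 in each library, with DMSO in grey, dCBP-30 in red and a line at the mean of 3. Every red point lies below every grey point of its time. In T>C reads the same holds for 14.6%, 28.2% and 45.8% of all genes at 2, 6 and 24 h. The total reads of KLF6 come closest to DMSO at 24 h, at 102 against 145 RPM.

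Among the AP-1 genes, JUN changed direction over time. JUN encodes the AP-1 subunit that can pair with itself as well as with FOS proteins, and its counted 3′ UTR lies at chr1:58780791-58782077. It had 16.2, 18.2 and 15.3 RPM of T>C reads with dCBP-30 at 2 h against 36.3, 35.1 and 32.7 under DMSO. At 6 h the values were 36.5, 40.9 and 34.1 against 36.9, 34.7 and 38.6 RPM, and at 24 h 81.0, 68.7 and 98.2 against 38.9, 32.0 and 44.1 RPM. The groups were apart at 2 h with dCBP-30 below, as for 14.6% of all genes, and overlapped at 6 h. At 24 h they were apart with dCBP-30 above, as for 6.46% of all genes. The DMSO means stayed between 34.7 and 38.3 RPM. The log2 fold changes were -1.07 (SE 0.17, edgeR adjusted p = 1.4e-06), 0.02 (95% interval -0.31 to 0.34, adjusted p = 0.96) and 1.11 (SE 0.16, adjusted p = 9.5e-08).

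Tested as differences between times, the effect on JUN at 6 h exceeded that at 2 h by 1.08 on the log2 scale (SE 0.23, edgeR adjusted p = 0.00093) and the effect at 24 h exceeded that at 2 h by 2.17 (SE 0.24, adjusted p = 6.3e-11). These 2 comparisons share the 2 h libraries. Of all genes, 0.684% and 3.02% had a difference in this direction. JUN sat close to the 2-fold limit at both ends, and fell short of it at 2 h with total reads not corrected by TMM factors (-0.96), and at 24 h without replicate 3 of dCBP-30 (0.97) or replicate 2 of DMSO (0.99), with adjusted p of at most 1.7e-05 in each. Scaled by T>C reads, the increase at 24 h was 1.75.

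Total JUN RNA lagged behind on the way down and went further on the way up. At 2 h total reads were 38.5, 56.7 and 36.0 RPM against 57.6, 63.9 and 55.9, with 1 dCBP-30 library inside the DMSO range (log2 fold change -0.43, SE 0.14, edgeR adjusted p = 0.08). At 24 h they were 206, 202 and 201 RPM against 50.9, 46.8 and 57.0, far apart (1.98, SE 0.14, edgeR adjusted p = 8.4e-12).

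JUNB and JUND, the subunits that are often found to restrain or replace JUN, were not called in T>C reads at any time. JUNB had 31.3, 41.8 and 24.1 RPM of T>C reads with dCBP-30 at 2 h against 27.2, 27.1 and 27.6 under DMSO, 13.1, 12.2 and 16.7 against 27.1, 21.5 and 22.2 at 6 h, and 25.0, 26.8 and 30.2 against 32.2, 33.1 and 30.7 at 24 h. The log2 fold change was 0.25 at 2 h (edgeR adjusted p = 0.49), -0.75 at 6 h (SE 0.19, adjusted p = 0.0015, under 2-fold) and -0.23 at 24 h (adjusted p = 0.34). The value at 6 h was -0.44 (adjusted p = 0.069) scaled by T>C reads, -0.43 (adjusted p = 0.098) without TMM factors and -0.38 (adjusted p = 0.1) with DESeq2 size factors of T>C reads, and the value at 24 h turned to 0.42, 0.29 and 0.52 (adjusted p = 0.063, 0.25 and 0.0096). The effect at 6 h was below that at 2 h by 1.00 on the log2 scale (SE 0.26, edgeR adjusted p = 0.0082, as in 7.35% of all genes). This difference was not called when scaled by T>C reads (-0.69, adjusted p = 0.11), without TMM factors (-0.79, adjusted p = 0.07), or without replicate 2 of dCBP-30 at 2 h (-0.77, adjusted p = 0.073), the library with the highest JUNB level.

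JUND had 33.3, 38.1 and 23.7 RPM of T>C reads with dCBP-30 at 2 h against 15.9, 25.4 and 29.4 under DMSO, 31.4, 31.7 and 37.3 against 28.4, 22.0 and 26 at 6 h, and 32.0, 20.2 and 24.6 against 43.7, 29.1 and 35.5 at 24 h. The groups overlapped at 2 and 24 h and were apart at 6 h with dCBP-30 above, as for 8.57% of all genes. The log2 fold change of new JUND RNA was not called at 2 h (0.43, SE 0.20, edgeR adjusted p = 0.19) or 6 h (0.39, SE 0.20, adjusted p = 0.15). The value at 6 h was larger, but under 2-fold, when scaled by T>C reads (0.71, adjusted p = 0.0042), without TMM factors (0.71, adjusted p = 0.006) and with DESeq2 size factors of T>C reads (0.77, adjusted p = 0.0022). At 24 h new JUND RNA was lower by less than 2-fold (-0.50, SE 0.20, edgeR adjusted p = 0.04), a value that turned to 0.15 (adjusted p = 0.60) when scaled by T>C reads. Its effect at 24 h was below that at 2 h by 0.92 (SE 0.28, edgeR adjusted p = 0.01, as in 23.0% of all genes), but by 0.27 (adjusted p = 0.56) when scaled by T>C reads. Total JUND reads rose, with 236, 240 and 352 RPM against 176, 129 and 145 at 6 h (0.88, SE 0.20, edgeR adjusted p = 0.0011, under 2-fold), and 347, 315 and 275 RPM against 182, 135 and 150 at 24 h (1.01, SE 0.20, adjusted p = 0.00015). At both times all dCBP-30 libraries were above all DMSO libraries, as for 23.7% and 34.5% of all genes. The value at 24 h sits on the 2-fold limit and lay between 0.91 and 0.99 when any 1 of 4 libraries was left out. Without TMM factors the values in total reads were 1.2 at 6 h (edgeR adjusted p = 2.7e-05) and 1.53 at 24 h (adjusted p = 4.1e-07). Both were then called higher.

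In total reads, JUN and JUND were the 2 members called higher at 24 h, of 8 tested without EGR1, and 15.0% of all 12267 genes tested were higher then. JUNB total reads changed by 0.35, -0.44 and 0.48 at 2, 6 and 24 h (edgeR adjusted p = 0.28, 0.034 and 0.014), each under 2-fold. Without TMM factors the JUNB value at 24 h was 1, at the 2-fold limit, and was called higher (adjusted p = 1.1e-05). KLF10 was the only member lower at 24 h (16.1% of all genes). At 2 h KLF2, KLF6 and KLF10 were lower of 8 tested besides EGR1 (1.25% of all genes) and none of the 8 was higher (0.457%). At 6 h KLF2, KLF6, KLF10 and KLF13 were lower of the same 8 (8.67%) and none of them was higher (7.47%).

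FOSL2, a FOS-related subunit, had between 1.08 and 3.70 RPM of T>C reads with dCBP-30 at 2 and 6 h and was not called at any time. Its log2 fold changes were 0.29 at 2 h (95% interval -0.56 to 1.13), -0.93 at 6 h (-1.82 to -0.04, edgeR adjusted p = 0.13) and -0.55 at 24 h (-1.37 to 0.27), the last turning to 0.1 when scaled by T>C reads and to 0.2 with DESeq2 size factors of T>C reads. Each interval includes a change of 2-fold, upward at 2 h and downward at 6 and 24 h. FOS, the founding immediate early gene of the group, was at or near 0 in every library. It had 10, 2 and 2 reads under dCBP-30 and 3, 16 and 0 under DMSO at 2 h, 5, 0 and 0 against 3, 0 and 0 at 6 h, and 2, 2 and 11 against 3, 1 and 5 at 24 h. The groups overlapped throughout, and 70 reads over the 20 libraries were too few for a test, so a change of FOS was not detectable at this depth.

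**Figure D3:**
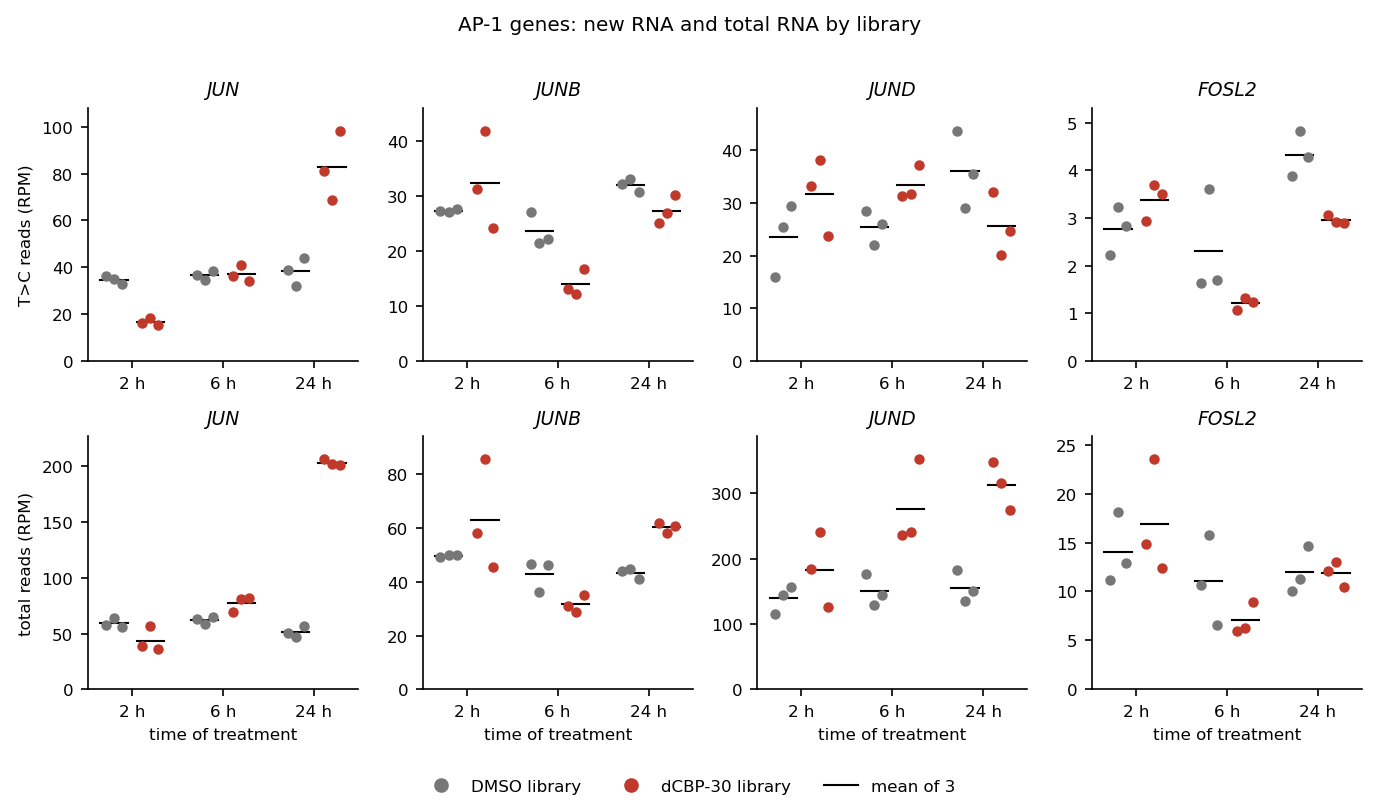
T>C reads (top, RPM) and total reads (bottom, RPM) of JUN, JUNB, JUND and FOSL2 in each library, with DMSO in grey, dCBP-30 in red and a line at the mean of 3. JUN in T>C reads goes from below DMSO at 2 h (16.6 against 34.7 RPM) to above it at 24 h (82.6 against 38.3 RPM).

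**Figure D4:**
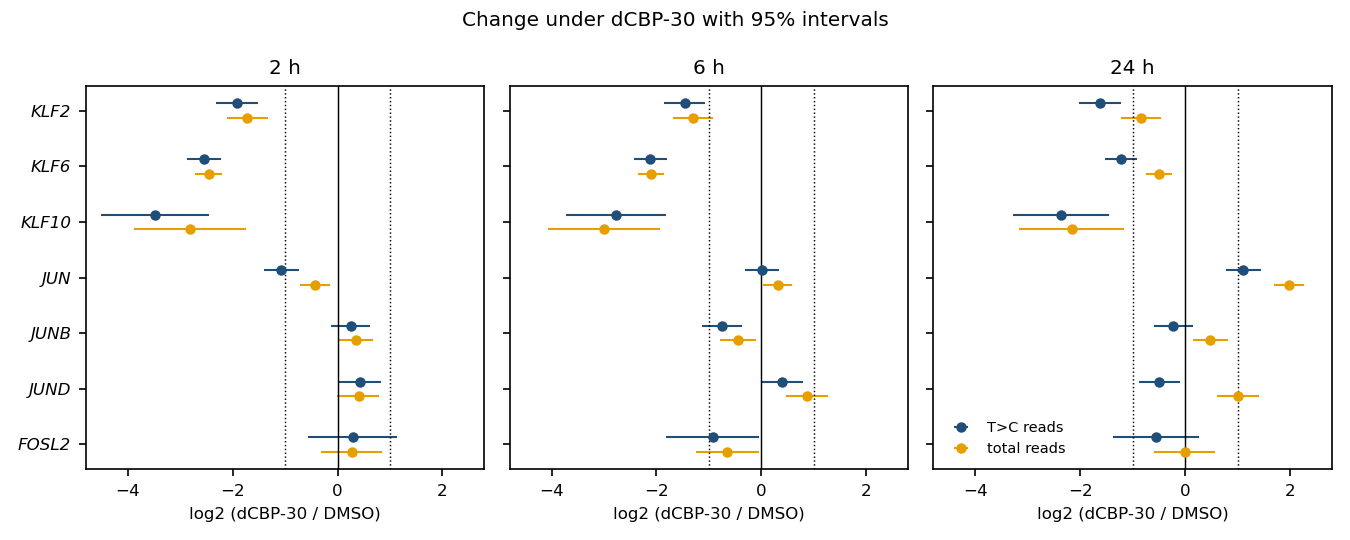
Log2 fold change of dCBP-30 over DMSO at 2, 6 and 24 h for 7 genes, in T>C reads (blue) and total reads (orange), with 95% intervals of the edgeR fit and dotted lines at a 2-fold change. KLF2, KLF6 and KLF10 lie left of 0 at each time, and JUN moves from -1.07 to 1.11 in T>C reads. EGR1, FOS and KLF13 are not drawn, having groups at or near 0 reads.

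The share of T>C reads, tested as T>C against other reads of the same library, was lower under dCBP-30 at 24 h for JUN, JUNB, JUND, KLF2 and KLF6, 5 of the 7 members tested, where 25.6% of all genes were lower (edgeR adjusted p under 0.05 with no fold limit). For JUN the share was 39.3%, 34.1% and 49.0% under dCBP-30 at 24 h and 76.6%, 68.4% and 77.4% under DMSO. For KLF2 it was 55.6%, 43.6% and 49.3% against 86.0%, 87.8% and 83.8%, and for JUND 9.22%, 6.41% and 8.94% against 24.0%, 21.6% and 23.7%. No dCBP-30 library reached a DMSO library in these 3 genes, as in 44.3% of all genes. As log2 ratios of T>C to other reads, the changes were -2.08 for JUN (SE 0.28, edgeR adjusted p = 1.2e-05), -1.79 for JUNB (SE 0.28, adjusted p = 8e-05), -1.77 for JUND (SE 0.20, adjusted p = 9.2e-07), -2.64 for KLF2 (SE 0.33, adjusted p = 3.6e-06) and -1.92 for KLF6 (SE 0.25, adjusted p = 8.8e-06), while the median gene moved by -0.79. With the shift between whole libraries removed the same 5 members were called, with values between -2.22 and -1.36. The fewer conversions per T>C read in these libraries move with this result, and their part was not tested.

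At 2 h the share was lower for JUN alone (42.2%, 32.1% and 42.4% against 63.1%, 55.0% and 58.5%, log2 ratio -1.18, SE 0.28, edgeR adjusted p = 0.0091). It was 1 of 7 tested besides EGR1, where 5.13% of all genes were lower. The share of JUN was not called without replicate 2 of dCBP-30 (adjusted p = 0.077) or replicate 1 of DMSO (adjusted p = 0.057). KLF6, with the smallest adjusted p of the members in T>C reads at 2 h, had nearly the same share in both groups (67.1% ± 4.78 and 71.8% ± 1.87, SD, n = 3, log2 ratio -0.31, 95% interval -0.84 to 0.23), its T>C reads and other reads being lower together. At 6 h edgeR called no member, EGR1 left aside (6.86% of all genes lower), with JUN, JUNB, JUND and KLF2 at an unadjusted p under 0.05. No member was called by limma either.

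**Figure D5:**
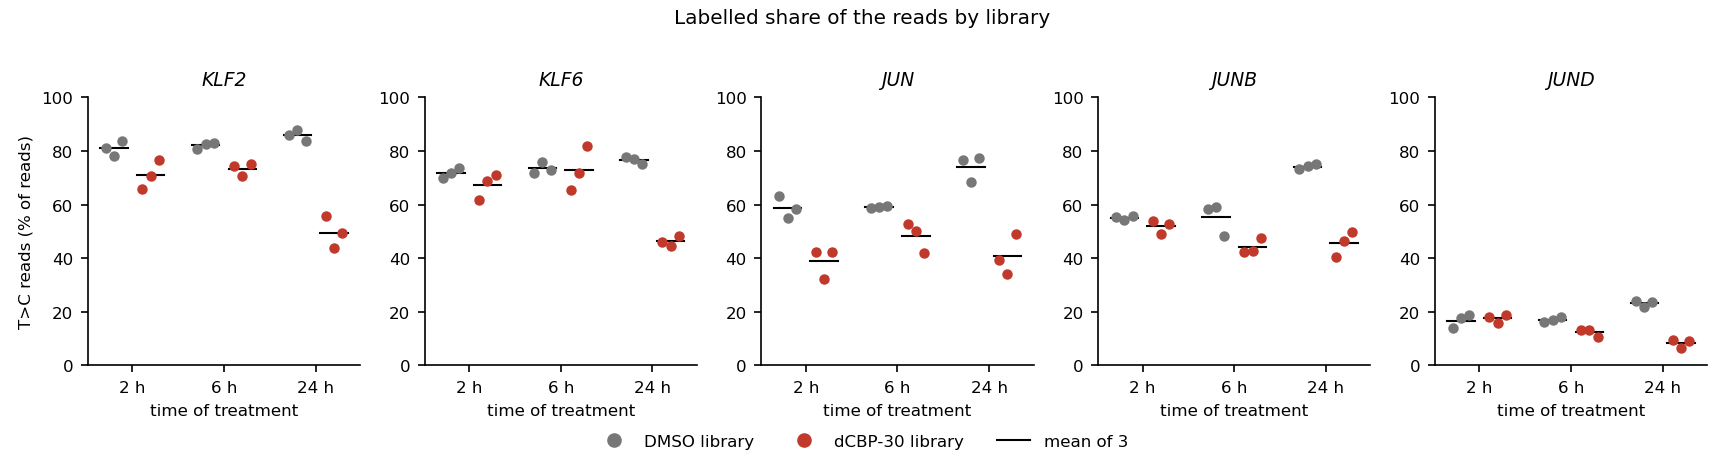
Share of T>C reads in the reads of KLF2, KLF6, JUN, JUNB and JUND (percent, 0 to 100) in each library, with DMSO in grey, dCBP-30 in red and a line at the mean of 3. At 24 h all red points lie below all grey points, as for 44.3% of all genes. For JUN they lie between 34.1% and 49.0% against 68.4% to 77.4%.

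Under DMSO alone, edgeR called no member between 6 and 2 h in T>C reads, of 7 tested besides EGR1, and none had an unadjusted p under 0.05, while 0% of all genes were called. Between 24 and 2 h it called none of 7 (2.53% of all genes), with KLF2 and JUND at an unadjusted p under 0.05 (0.0011 and 0.0033). No other tool was run on these.

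Lists of related genes give the setting. Of 30 other immediate early genes, 20 could be tested in T>C reads, and 13, 14 and 7 were lower at 2, 6 and 24 h (background as above, 7.14%, 17.1% and 31.2% lower). With NR4A2 left aside, none was higher at 2 or 6 h (1.66% and 2.36% of all genes). IER2 alone was then higher at 24 h (2.18% of all genes). Their median log2 fold changes were -1.53, -1.46 and -0.52, against 0.05, -0.27 and -0.69 for all genes. TRIB1, a pseudokinase that binds MEK and COP1, had 14, 17 and 80 T>C reads with dCBP-30 against 888, 1431 and 1128 under DMSO (log2 fold changes -6.04, -6.57 and -4.07, edgeR adjusted p at most 7.4e-07), and SGK1, a serum-induced kinase, changed by -5.03, -4.19 and -2.69 (adjusted p at most 8e-08). The nuclear receptor NR4A2 was near 0 under DMSO at 24 h, with 265 against 16 T>C reads. Its values are a description with no test (4.8 ± 1.40 against 0.337 ± 0.172 RPM, SD, n = 3). IER2 changed by 1.57 at 24 h (SE 0.55, edgeR adjusted p = 0.019), so EGR1 and JUN were not the only early response genes that were higher then.

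Of 17 other KLF and SP genes, 13 could be tested, and 3, 3 and 6 were lower at 2, 6 and 24 h with none higher, where 7.14%, 17.1% and 31.2% of all genes were lower. KLF3, a repressor, changed by -2.61 at 2 h and -3.04 at 6 h (edgeR adjusted p = 4.7e-07 and 8.3e-09), KLF9 by -2.97 at 2 h (adjusted p = 5.5e-05), KLF7 by -2.48 at 6 h (adjusted p = 6.4e-08), and KLF11, a close relative of KLF10, by -3.09 at 24 h (adjusted p = 2.6e-13). KLF3 was also called lower at 24 h (-1.61), KLF7 at 2 h (-2.6) and KLF11 at 6 h (-2). The median of the list was -0.61, -0.61 and -0.97. KLF5, with 23 against 88 T>C reads, changed by -2.13 at 24 h (adjusted p = 0.028).

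Of 19 dimer partners and relatives of AP-1, 14 could be tested, with 2, 5 and 1 lower (7.14%, 17.1% and 31.2% of all genes) and none higher, and medians of -0.02, -0.74 and -0.81. ATF3, a stress-induced partner of JUN, was called lower at 2 h (-2.14, edgeR adjusted p = 4.7e-07), 6 h (-1.39) and 24 h (-1.23, adjusted p = 0.00058). MAFF was lower at 2 and 6 h (-1.70 and -2.84, adjusted p = 0.00037 and 7e-09), and ATF5 at 6 h (-1.57, adjusted p = 0.0029). ATF3 and MAFF are also in the list of immediate early genes.

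Of 22 genes of SRF, its ETS partners and the MAP kinase cascade, which act upstream of EGR1 and the AP-1 genes, 21 could be tested, with 2, 3 and 1 lower (7.14%, 17.1% and 31.2% of all genes) and 0, 1 and 0 higher (1.66%, 2.36% and 2.18%), and medians of -0.10, -0.24 and -0.33. ELK3, an ETS partner of SRF, was lower at 2 and 6 h (-2.57 and -3.11, edgeR adjusted p = 4.1e-09 and 2.1e-12). MAP2K4, a kinase above JNK, was higher at 6 h (1.32, SE 0.49, adjusted p = 0.039) and MAP2K7, the other one, lower at 24 h (-1.05, adjusted p = 1e-04). SRF itself had log2 fold changes of 0.17, -0.76 and 0.41 and was not called. Of the EGR corepressors NAB1 and NAB2, NAB1 was lower at 24 h (-2.30, SE 0.56, edgeR adjusted p = 0.00061) and neither was called at 2 or 6 h.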

How the data were processed

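RNA of MM1.S cells was made into SLAM-seq libraries with a 3′-end kit, after adding a Drosophila 4sU-RNA spike-in that was not used here. Per the study's methods, the authors trimmed reads with TrimGalore 0.4.4, ran Slamdunk 0.4.3 with default parameters on 3′ UTRs of hg38, and collapsed the result per transcript. They deposited raw counts for each library (reads, reads with T>C changes, the conversions in them, the T positions covered), with no pooling. Whether strand was used in counting is not given in the sources used here, but no counted 3′ UTR of the 10 genes overlaps that of another gene.

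Of 97466 transcript rows, 91.4% matched GENCODE release 44 by identifier, giving 19593 genes, and the rest held at most 0.199% of a library's reads. FOSL2, JUN, KLF6 and KLF10 each have 2 transcripts with the same reads. T>C reads were tested with edgeR 4.0.16 in R 4.3.3 (quasi-likelihood, robust, 1 mean per group over 18 libraries, filterByExpr with a minimum count of 10, Benjamini-Hochberg), with library sizes from total reads times TMM factors of the total reads. Total reads were tested in the same way, and the T>C share as T>C against other reads with an effect per library. Genes were called at an adjusted p under 0.05 and more than 2-fold, and shares and differences between times at the adjusted p alone. The methods name DESeq for the study's own tests, and DESeq2 1.42.0 and limma 3.58.1 gave alternatives here. The tests were tried on simulated counts. A bound takes 3 counts over a group at 0, and bounds cover counting error only, since reads are not independent molecules. Sequences came from GENCODE and RefSeq tables with Python 3.11.15.

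The members and the gene lists were chosen with earlier results of these data known. All members are named. From each list, up to 2 called genes in each direction are named at each time, by size of change, if their higher group averaged 20 or more T>C reads. Other times at which a named gene was called are given as well. Some genes of these lists are counted but not reported here by name. SRF was named after its values were seen. Alternatives were the scaling, the tool, the filter, background subtraction, a replicate block, each time fitted alone, and each library left out in turn. Leaving libraries out of the differences between times, and summing reads over 3′ UTRs, were added after the data were seen.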

Additional observations from a re-analysis of the deposited data

Results flagged for a closer look

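In 5 results the effect of dCBP-30 on T>C reads differed between times, tested as an interaction with edgeR over all genes. For JUN the effect at 6 h was 1.08 above that at 2 h on the log2 scale (adjusted p = 0.00093), and at 24 h it was 2.17 above (adjusted p = 6.3e-11). With each library left out in turn these stayed between 1.01 and 1.16, and between 2.03 and 2.29, and both stayed called. For KLF6 the effect at 24 h was 1.33 above that at 2 h (adjusted p = 2.3e-06), between 1.22 and 1.47 with libraries left out. For JUNB the effect at 6 h was 1.00 below that at 2 h (a difference of -1, adjusted p = 0.0082), and for JUND the effect at 24 h was 0.92 below that at 2 h (a difference of -0.92, adjusted p = 0.01). The call for JUND was lost without replicate 1 of DMSO at 2 h (-0.70, adjusted p = 0.062) or at 24 h (-0.76, adjusted p = 0.054), and that for JUNB without replicate 2 of dCBP-30 at 2 h (-0.77, adjusted p = 0.073).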

How the results depend on the processing

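No direction of a called member reversed under any alternative. The scaling mattered most at 24 h, where 4 members were called in T>C reads but 2 (JUN and KLF10) when scaled by T>C reads and 2 under DESeq2 with size factors of T>C reads, since KLF2 (-0.97 and -0.87) and KLF6 (-0.58 and -0.48) then fell under 2-fold. KLF6 was also under 2-fold without TMM factors (-0.70). The median gene at 24 h moved from -0.69 to -0.04 and 0.06 with these scalings and to -0.16 without TMM factors. Differences between 6 and 2 h were called in 2 members, and in 1 without TMM factors. Scaled by T>C reads the number was again 2, with KLF6 (0.73, adjusted p = 0.019 by edgeR) in place of JUNB. Scaled by T>C reads, KLF2 was called under DMSO at 24 against 2 h (1 member against 0). With libraries left out in turn, the number of members called in T>C reads was 3 to 4 at 24 h, and in the share at 2 h 0 to 1 (1 with all). In the difference between 6 and 2 h it was 1 to 2, and between 24 and 2 h 2 to 4 (3 with all, and KLF10 added at 2.27 without replicate 3 of dCBP-30 at 2 h). In total reads at 6 h, EGR1 left aside, KLF13 lost its call as given above. JUND gained one without replicate 1 of DMSO (1.01, edgeR adjusted p = 0.0015). Replicate numbers did not pair the samples, same-numbered libraries correlating between -0.0437 and 0.0174 in T>C reads and between -0.105 and 0.0299 in total reads. With the replicate block the counts in T>C reads stayed at 4 at 2 h and 4 at 24 h, and KLF2, KLF6 and KLF10 stayed called lower at 6 h. No call of a member changed, EGR1 left aside. FOS, KLF13 and EGR1 at 2 h had few reads, which limits what their values can show.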

Other observations

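The 5 tested genes whose T>C levels followed EGR1 most closely over the 18 labelled libraries (Pearson correlation of log2 T>C counts scaled to library size, a description with no test, over libraries that share their groups) were FRAT1 (0.881), MAP2 and UBXN7 (both 0.865), FAM13A (0.864) and SMIM14 (0.862). FRAT1, which binds GSK3, had a mean of 2.12, 3.31 and 6.87 RPM of T>C reads with dCBP-30 at 2, 6 and 24 h, against 1.06, 0.522 and 0.834 under DMSO. MAP2, a microtubule protein of neurons, had 2.11 and 2.84 RPM at 6 and 24 h and no T>C read under DMSO at these times.

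Conversions per T>C read at 24 h differed between the members as they did over all genes. Under dCBP-30 they were 1.52 for JUN, 1.69 for JUNB, 1.70 for KLF2, 1.79 for JUND, 1.84 for KLF10 and 1.90 for KLF6, against 3.04, 3.28, 3.38, 3.25, 3.72 and 3.4 under DMSO. EGR1, with 164 T>C reads in those dCBP-30 libraries, had 2.94 and no DMSO value. At 2 h the values of JUN (2.35 and 2.58) and KLF6 (3.04 and 3.08) lay closer together.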
